A study of Mus musculus with 2 samples.

Results

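Retained-intron transcripts are the rows that the annotation behind the deposited table classes as retained_intron, that is, spliced transcripts of a gene that keep at least part of an intron and have no annotated coding sequence. They made up 15619 of the 109463 mouse transcripts in the table and came from 6770 genes. Each was set against a reference, the protein-coding transcript of the same gene with the highest count summed over the libraries, by count per length (density). A reference existed for 15374 of them, in 6604 genes. The other 245, in 166 genes, had no protein-coding transcript.

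The counts are ribosome footprints from the brains of control mice at postnatal day 5. RiboLace captures ribosomes engaged in translation on beads that carry a puromycin analogue, after nuclease digestion of a cytoplasmic lysate. All animals had the genotype Smn+/-; SMN2tg/0: they lacked 1 copy of mouse Smn, carried the human SMN2 transgene and came from the Taiwanese line, a model of spinal muscular atrophy, on an FVB background. There were 2 biological replicates of this 1 group and no other genotype, age or treatment, and the labels do not say whether a replicate was 1 animal or several.

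An intron that stays in a processed transcript usually adds stop codons to the reading frame, and such RNAs are often held in the nucleus or degraded through nonsense-mediated decay once they reach ribosomes. Regulated retention is known for genes of splicing factors and their kinases, and it is frequent in neural tissue. Introns also house small nucleolar RNAs, small Cajal body RNAs and microRNA hairpins, which are cut out of the intron and work as separate RNAs.

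The table gives no positions for its transcripts and no genome was used here, so the intron that a transcript retains, and its sequence, are not shown. Sequences of intronic RNAs are shown for 1 gene, so that their counts can be read beside those of its retained-intron transcript. RefSeq (GRCm38.p6) places 3 microRNA hairpins inside Mcm7, which encodes a subunit of the replicative helicase and whose transcript Mcm7-010 is described among the transcripts that differed between the libraries. The main mature products are written 5′ to 3′, with the seed (bases 2 to 8) in capitals.
mmu-miR-25-3p: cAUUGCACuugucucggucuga
mmu-miR-93-5p: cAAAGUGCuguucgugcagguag
mmu-miR-106b-5p: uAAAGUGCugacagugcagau
The last 2 share the seed AAAGUGC, and the seed of mmu-miR-25-3p is AUUGCAC. At 21 to 23 nt they are shorter than the fragments of 25 to 35 nt that were selected, so a fragment that covers one whole also holds hairpin sequence beside it.

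The table held 729027 counts in replicate 1 and 225075 in replicate 2. The neuronal markers Tubb3, Map2, Snap25, Stmn2 and Dcx were all present, with 2094 and 753 counts together, and the liver markers Alb and Apoa1 were at 0 in both libraries, as fits the label of brain. Astrocyte markers held 587 and 221 counts, microglial markers 51 and 13, and erythroid markers 694 and 229. In whole tissue, fewer cells of a type and less RNA per cell cannot be told apart.

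Of all counts in replicate 1, 75059 lay on retained-intron transcripts, a share of 10.3% (Wilson 95% confidence interval 10.23 to 10.37). In replicate 2 there were 21285 such counts, a share of 9.46% (9.34 to 9.58). The mean was 9.88% ± 0.593 (SD, n = 2). Among genes with a protein-coding transcript the share was 11.27% and 11.01%, and with short non-coding classes left out of the total it was 10.46% and 10.2%. The intervals treat counts as independent and hold no spread between animals. Rows of a gene can share fragments, and amplified reads carry no molecular identifier, so the intervals may be too narrow.

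Most of these rows were nearly empty. A count was present for 9862 transcripts in replicate 1 and 6162 in replicate 2, and 5099 had none in either. Only 1003 reached 20 counts over both libraries. A pair of transcript and reference was compared where it held at least 20 counts over both libraries, which left 5637 retained-intron transcripts of 2399 genes and set 9737 aside. Of the 5637, 358 had no count of their own and 995 had at least 20. In 271 genes 5 or more of them were compared, up to 15 in Eif4a2, and such transcripts share sequence with one another and with their reference.

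The number of counts on isoforms depends on how shared fragments were handled, so this was looked at first. In 91 pairs of protein-coding isoforms with equal coding length and total lengths within 60 nt of each other, the counts were exactly equal in 10 pairs in replicate 1 and 12 in replicate 2. The mean chi-square of a pair was 0.38 and 0.506, where independent counts would average 1. The counts of such isoforms were thus closer than independent counts would be. The pairs were matched by length, not by sequence, so this does not settle whether a shared fragment was counted in full for every isoform or divided among them. Either way a count on a retained-intron row can lie in exons that it shares with the coding transcript. A small excess of counts over the reference is not read as a result. The exact binomial test used below treats counts as independent, so its p-values compare the rows of the table within a library.

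Retained-intron transcripts were, as a class, less dense in footprints than the coding transcripts of their genes. The median log2 density ratio, with 0.5 added to each count, was -0.59 in replicate 1 and -0.49 in replicate 2 over the 5637. The median of the replicate means was -0.54, a ratio of 0.687. With counts summed over the libraries and nothing added, the median density was 60.9% of that of the reference. It was 65% with each transcript at 0 placed at 3 counts, close to the upper 95% limit of a Poisson count of 0. All of them together held 58.9% (replicate 1) and 57.7% (replicate 2) of the counts that their lengths would hold at the density of their references.

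Other isoform classes came closer to the density of the reference. Processed transcripts, which also lack a coding sequence, held 80.9% and 78.7% of the counts expected from their lengths, nonsense-mediated decay transcripts 99.6% and 94.8%, and protein-coding isoforms other than the reference 91.5% and 87.5%. In both libraries retained-intron transcripts were lowest of the 4 classes, by more than the difference between libraries of any class. The order is a description, because the classes share genes, references and fragments, and no test of the difference was made.

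The density also followed the makeup of the reference. Where the coding sequence took up to 20% of the reference, the rest being untranslated, 232 retained-intron transcripts held 122% and 112% of the expected counts. The value fell through 74.5% and 72.5% (949 transcripts, 20 to 40% coding), 60.4% and 61.3% (1464, 40 to 60%) and 53.7% and 52.7% (1680, 60 to 80%). At 80 to 100% coding, 1312 transcripts held 47.6% and 44.4%. The other 3 classes fell along the same axis, as the plot of density by coding share shows, so the trend is not particular to retained introns. Spearman's rho between the log2 ratio and the coding share was -0.26 across the 5637 transcripts and -0.39 across the 995 with 20 counts of their own. These points share references, libraries and fragments. The length of the reference enters both the density ratio and the coding share. Part of this relation, and of the fall across the bins, is therefore built into the measure.

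**Figure D1:**
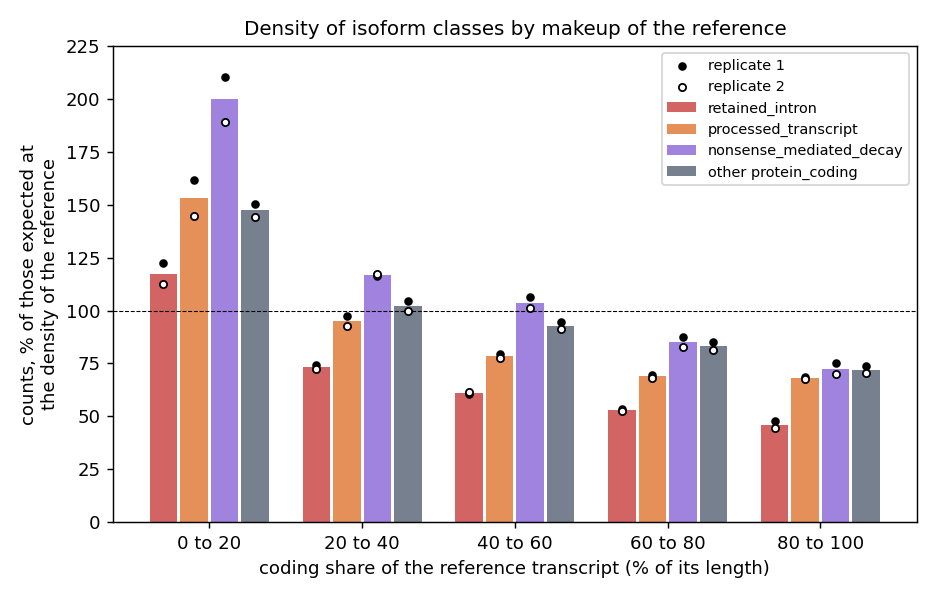
Counts on 4 classes of isoform as a percentage of those expected at the density of the coding reference (vertical axis), by the coding share of the reference in percent of its length (horizontal axis). Bars are the mean of 2 replicates, points are the replicates and the dashed line marks equal density; retained-intron transcripts are the lowest class in every bin, falling from 122% and 112% to 47.6% and 44.4%.

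Longer retained-intron transcripts were sparser. Those under 500 nt held 81.1% and 76.3% of the expected counts (697 transcripts), those of 2000 to 4000 nt 45% and 43.3% (1295), and those of 4000 nt or more 38.1% and 39.4% (390). Against the length of the transcript over that of its reference, Spearman's rho of the log2 ratio was -0.35 (n = 5637) and -0.55 (n = 995). That ratio has both lengths in it, so part of this relation is built into the measure.

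A higher density than the reference was found for 1433 retained-intron transcripts in replicate 1 and 1532 in replicate 2. In both libraries it was found for 780 transcripts of 639 genes, 13.8% of the 5637. The background over all 21026 isoforms compared, of every class that is not a reference, was 21.8%, and the share for retained-intron transcripts lay below it; this difference was not tested, since transcripts of a gene are not independent. Among the 995 with at least 20 counts of their own the number was 258, or 25.9%, in 224 genes, but that filter favours transcripts with high counts.

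The libraries shared part of this ranking. Of the 1433 transcripts denser in replicate 1, 780 (54.4%) were denser in replicate 2 as well, against 752 (17.9%) of the 4204 that were not. Read the other way, 50.9% of those denser in replicate 2 were denser in replicate 1, against 15.9% of the rest. With at least 20 counts of their own these shares were 71.1% and 72.7%. Spearman's rho between the log2 ratios of the libraries was 0.56 across the 5637 and 0.76 across the 995. The ratios of both libraries hold the same lengths, and the references and count filters were chosen on counts summed over the libraries. Part of this agreement is therefore built into the measure.

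**Figure D2:**
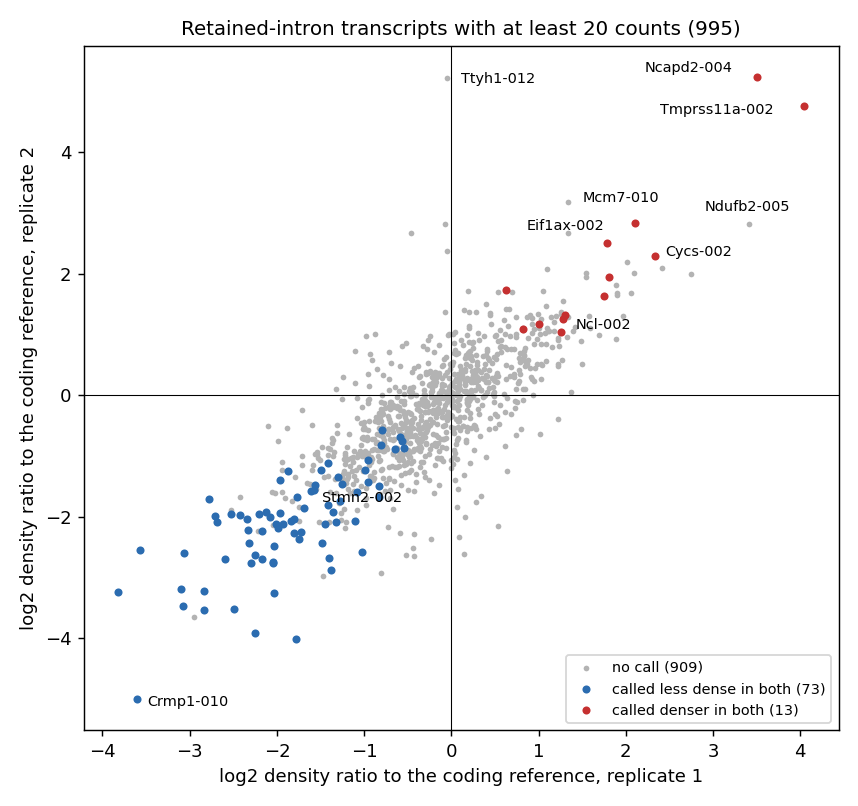
Log2 density ratio to the coding reference in replicate 1 (horizontal) and replicate 2 (vertical) for the 995 retained-intron transcripts with at least 20 counts, 1 point each. Red points were called denser and blue points less dense in both libraries; most points lie below 0 on both axes, and Ttyh1-012 is high in replicate 2 only.

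A transcript was called denser or less dense when the two-sided exact binomial test, on its counts out of the pair's against the share given by the lengths, had a Benjamini-Hochberg adjusted p under 0.05 in each library with the same direction. By this rule 14 retained-intron transcripts of 13 genes were called denser, 0.248% of the 5637, against a background of 0.537%. Another 195, of 151 genes, were called less dense, or 3.46%, against a background of 1.56%. Replicate 1 alone, which was deeper, would have called 129 denser and 965 less dense, and replicate 2 alone 21 and 197. At an unadjusted p under 0.05 in both libraries the numbers were 58 and 537.

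Most of the 14 came from genes whose coding transcript is short in code and long in untranslated sequence. Their references had a median length of 4167 nt with a median coding share of 25.1%, and 12 of the 14 had a share under 40%. The retained-intron transcripts themselves had a median length of 714 nt. With the count of the reference divided by the length of its coding sequence alone, 12 of the 14 fell below a ratio of 1 and 3 were called less dense. Ncapd2-004 was the only one still called denser.

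Cycs encodes cytochrome c, the electron carrier of the respiratory chain. Cycs-002 (607 nt) had 44 and 18 counts in replicates 1 and 2, and its reference Cycs-001 (3123 nt, 318 nt coding) had 45 and 19, so nearly equal counts lay on very different lengths. The log2 density ratio was 2.33 and 2.29, or 2.31 ± 0.031 (SD, n = 2), with a larger adjusted p of 0.000704 in the exact binomial test. The standard errors from counting alone were 0.304 and 0.468 in replicates 1 and 2, above this SD. An SD over 2 replicates, here and below, does not give the precision of a ratio. By the coding length of the reference the ratio turned to -0.99.

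Eif1ax encodes the initiation factor eIF1A. Eif1ax-002 (416 nt) had 18 and 9 counts against 53 and 16 on Eif1ax-001 (5172 nt, 435 nt coding), a log2 ratio of 2.47 ± 0.52 that turned to -1.10 by coding length. Lin7c encodes a scaffold protein of cell junctions and synapses. Lin7c-002 (746 nt) had 37 and 13 counts against 61 and 13 on Lin7c-001 (4228 nt, 594 nt coding), 2.15 ± 0.505, and -0.69 by coding length. Rps15a-006, of a small ribosomal subunit protein gene, had 13 and 6 counts on 556 nt against 29 and 4 on 3721 nt, 2.44 ± 1.17. All 3 were denser in both libraries by whole length and below the reference by coding length.

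Ncl encodes nucleolin, a protein of ribosome assembly whose introns host small nucleolar RNAs. Ncl-002 (3072 nt) had 158 and 59 counts, close to the 171 and 63 on Ncl-001 (8202 nt, 2124 nt coding). The log2 ratio was 1.31 ± 0.014, and -0.64 by coding length. Against the densest coding isoform of Ncl the log2 ratio was as large, 1.34 ± 0.753, with an adjusted p of 0.0977 (exact binomial test), so the call was lost.

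A further 5 transcripts of this kind belong to signalling and matrix genes. Ywhaz-007, of the gene for 14-3-3 zeta, had the most counts of all 14, 285 and 93 on 924 nt against 370 and 100 on 2122 nt (0.96 ± 0.192). Usp22-002, of a histone deubiquitinase gene, had 108 and 27 against 223 and 57 (1.27 ± 0.015). Gnao1-004, of the gene for the G protein subunit alpha o, abundant in neurons, had 90 and 34 against 217 and 38 (1.18 ± 0.783). Spock2-002, of a brain proteoglycan gene, had 122 and 36 against 184 and 63 (1.15 ± 0.147). Dpysl5-005, of a collapsin response mediator gene, had 70 and 25 against 270 and 86 (1.09 ± 0.126). Each was below its reference by coding length, from -0.23 for Usp22-002 to -0.89 for Spock2-002.

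Several transcripts with high ratios missed the call in replicate 2, where counts were few. Ndufb2, a gene of respiratory complex I, had 33 and 6 counts on Ndufb2-005 (422 nt) against 32 and 9 on 4371 nt, a log2 ratio of 3.12 ± 0.418 with an adjusted p of 0.0515 in replicate 2 (exact binomial test). The shorter coding isoform Ndufb2-002 (455 nt) had 29 and 9 counts, so this ratio depended on the choice of reference. Srsf1-007, of the splicing factor SRSF1, had 25 and 5 counts on 645 nt against 31 and 11 on 5362 nt (2.37 ± 0.537). Polr3k-002, Mrps26-002, Rps20-002 and Rgs4-003 lay between 2.00 and 2.25 with 21 to 30 counts each. All 6 were below their references by coding length.

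By coding length 82 retained-intron transcripts were denser than the reference in both libraries, all of them among the 780, and 13 of these had at least 20 counts. Beside Ncapd2-004, Tmprss11a-002, Mcm7-010 and Pagr1a-003, these were found in genes such as Cpeb2, a regulator of messenger RNA polyadenylation. Cpeb2-004 had 15 and 5 counts on 1775 nt against 20 and 5 on 3069 coding nt, a log2 ratio of 0.59 ± 0.285. Ttc3-029, of a ubiquitin ligase gene, had 32 and 12 on 926 nt against 165 and 45 on 5940 coding nt (0.58 ± 0.343). Neither was called, and these 2 were named after their values were seen. The measure lays all counts of the reference on its coding sequence, which gives the reference its highest density.

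Raw counts above those of the reference in both libraries were rare: 40 retained-intron transcripts of 37 genes, 0.71%, against a background of 0.528% over all isoforms compared. That background includes protein-coding isoforms, which cannot exceed a reference chosen for the highest count; over the 10862 isoforms of other classes it was 1.02%, above the share of retained-intron transcripts. This difference was not tested. The excess reached 10 counts over both libraries in 7 of them. In 3 it exceeded 2 times the square root of the pair's counts in at least 1 library: Ncapd2-004, Pagr1a-003 and Tmprss11a-002. In the other 37 the excess was smaller.

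Ncapd2 encodes a subunit of condensin I, which compacts chromosomes in dividing cells. Ncapd2-004 (682 nt) had 7 counts in replicate 1 and 30 in replicate 2, while the reference Ncapd2-001 (4629 nt, 4179 nt coding) had 4 and 5. The other 8 retained-intron transcripts of the gene had at most 2 counts in a library. The log2 density ratio was 4.37 ± 1.23, with a larger adjusted p of 0.00189 (exact binomial test), and 4.22 by coding length. RefSeq places Scarna10, a small Cajal body RNA gene, inside Ncapd2, and its row in the table held 9 and 34 counts, slightly more than Ncapd2-004 in each library.

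Pagr1a encodes a nuclear protein of a histone methyltransferase complex. Pagr1a-003 had 53 and 11 counts on 4373 nt, while the reference Pagr1a-201 (1412 nt) had 7 and 1. The log2 density ratio was 1.26 ± 0.074 and the transcript was not called, with an adjusted p of 0.13 in replicate 1 and 1 in replicate 2 (exact binomial test). The transcript is longer than the whole span of Pagr1a in RefSeq, 2302 nt. The next gene on the chromosome is Prrt2, which encodes a presynaptic protein, and Prrt2-001 held 46 and 10 counts. The counts of Pagr1a-003 equalled the sum over Pagr1a-201 and Prrt2-001 in both libraries. That sum leaves out other rows of both genes, such as Prrt2-008 with 40 and 9 counts and Pagr1a-001 with 8 and 2. Whether Pagr1a-003 shares fragments with any of these rows was not tested.

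Tmprss11a encodes a serine protease of the cell surface. Tmprss11a-002 (3058 nt) had 9 and 15 counts, and the only coding transcript, Tmprss11a-001 (2657 nt), had none. With the reference placed at the same limit of 3 counts over both libraries, Tmprss11a-002 was at least 6.95-fold denser, its own counting error left aside. It was called denser (larger adjusted p 0.0387, exact binomial test), and no other gene of RefSeq overlaps Tmprss11a. By coding length the log2 ratio was 3.21 with 0.5 added to each count, and the adjusted p was 0.142 (exact binomial test). Without the count filter, which changes only the adjustment, the adjusted p was 0.0865.

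**Figure D3:**
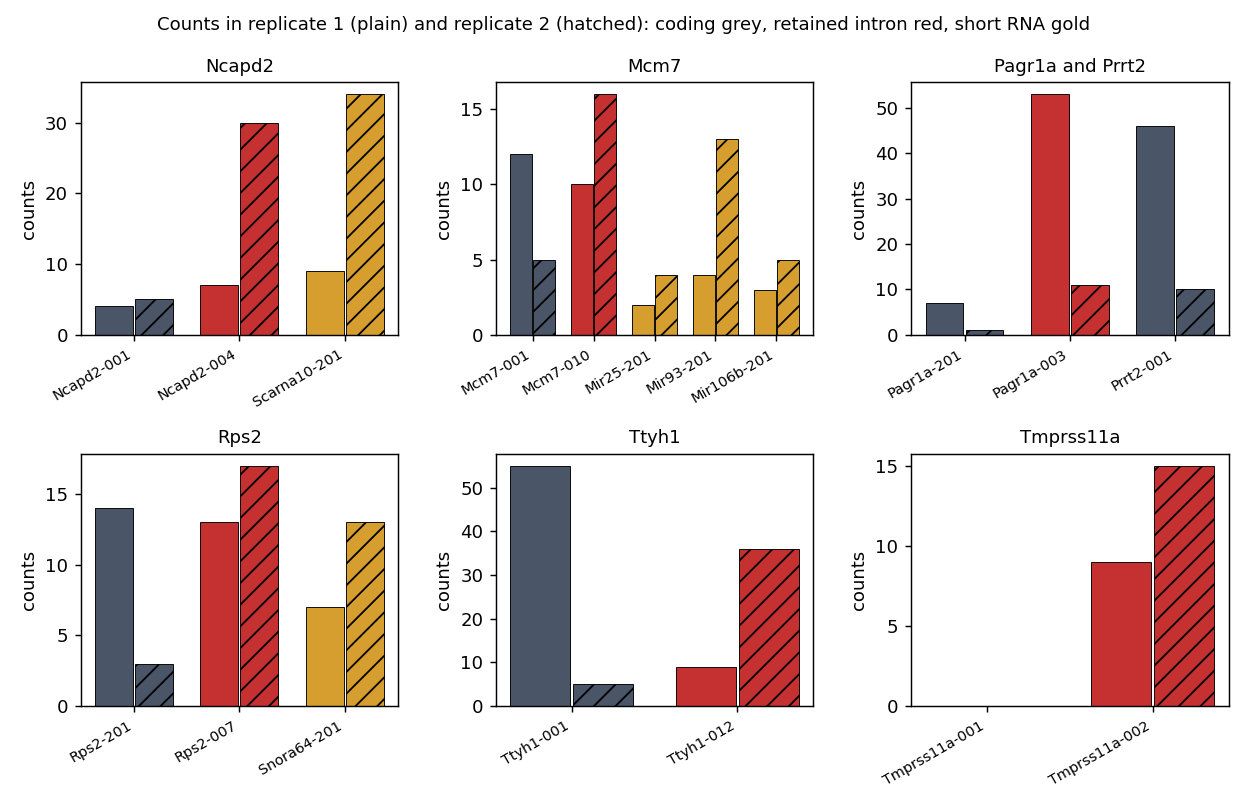
Deposited counts (vertical axes, linear, from 0) in replicate 1 (plain bars) and replicate 2 (hatched bars) for the coding reference, the retained-intron transcript and, where present, short RNA genes or a neighbouring gene. Ncapd2-004 and Scarna10 are both higher in replicate 2, as are Mcm7-010 and the 3 hairpins of Mcm7, while Pagr1a-003 has a profile close to that of Prrt2-001.

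The next largest excesses were small beside the pair's counts. Camkv-002, of the gene for a neuronal pseudokinase, had 82 and 25 counts on 3253 nt against 71 and 18 on 3277 nt, a log2 ratio of 0.35 ± 0.181. Rpl12-007, of a large ribosomal subunit protein gene, had 24 and 13 on 2863 nt against 17 and 5 on 1242 nt (-0.31 ± 0.573). RefSeq places Snora65 inside Rpl12, and its row held 2 and 5 counts. Sez6-005, of a synaptic membrane protein gene, had 66 and 19 against 58 and 15 (0.16 ± 0.103). Tmed7-002, of a cargo receptor gene of the secretory pathway, showed how length bears on the measure: it had 32 and 9 counts against 25 and 7, yet at 7982 nt against 1348 nt its log2 ratio was -2.22 ± 0.0063. Ppid-002 had 21 and 9 against 16 and 6 (-0.64 ± 0.117) and Hes6-005 13 and 4 against 7 and 3 (0.37 ± 0.343). None of these was called.

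The retained-intron transcripts of genes whose RefSeq span holds a short non-coding gene with at least 5 counts were set beside the rest. There were 176 of them in 54 genes, and 24 (13.6%) were denser than the reference in both libraries, against 728 of 5275 (13.8%) in genes without one. More raw counts than the reference were seen for 4 of the 176 (2.27%), namely Ncapd2-004, Rpl12-003, Rpl12-007 and Rpl3-002, against 34 of the 5275 (0.64%). This grouping was chosen after the data were seen, and the difference was not tested. Without the 54 genes the number of transcripts denser in both libraries was 756.

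The retained-intron transcripts with the most counts came from the most abundant genes of the neonatal brain, and most of these lay near the density of their reference. Tubb5 encodes a beta-tubulin of dividing and young neural cells. Tubb5-004 (979 nt) had 475 and 198 counts, or 485 and 202 per 1000 nt, against 1116 and 449 on Tubb5-001 (2649 nt), 421 and 170 per 1000 nt. Eef1a1-005, of the elongation factor eEF1A, had 312 and 98.1 counts per 1000 nt against 310 and 102. Uchl1-002, of a neuronal ubiquitin hydrolase, had 314 and 114 against 316 and 110. Actg1-007, of gamma-actin, had 412 and 98.4 against 359 and 98.9. Slc25a4-002, of the mitochondrial carrier of adenine nucleotides, had 231 and 76.1 against 180 and 62.3. In none of these 5 did the densities differ by the test in both libraries.

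Other transcripts among the 8 with the most counts were called less dense. Hspa8-002 (3158 nt), of a constitutive chaperone gene, had 442 and 113 counts against 503 and 138 on 2394 nt, a log2 ratio of -0.64 ± 0.071. Actb-008 (861 nt), of beta-actin, had 283 and 111 against 1098 and 367 on 1920 nt (-0.68 ± 0.165). Tubulins and actins have near-identical paralogs and processed pseudogenes that can share fragments with these rows, so their values are uncertain.

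Among the 195 called less dense, 144 were 2000 nt or longer and 18 had no count in either library. All were still called by coding length, but that measure can only lower a ratio, so this is no separate check. The 8 with the lowest fitted ratios, taken at 1 per gene, all had no count. Klc1-008 (968 nt), of the gene for kinesin light chain 1, had 0 counts while Klc1-001 (2504 nt) had 199 and 61. With 3 counts over both libraries as an approximate 95% limit for 0, Klc1-008 was at least 33.5-fold less dense. Counting error in the reference is left aside in this bound. The same bound was at least 56.5-fold for Atp5j2-005 of a mitochondrial ATP synthase gene, 34.1-fold for Cdv3-006, 34-fold for Aimp1-002 of the multi-synthetase complex, 27.5-fold for Igsf8-005, 24.9-fold for Zbed5-003, 23.5-fold for Ank2-007 and 21.2-fold for Dhx9-006 of an RNA helicase gene. These 8 were singled out after the values were seen.

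The transcripts nearest to a mean ratio of 1 are given as a description of that boundary. Just above a ratio of 1 lay Sez6-004, with 55 and 9 counts and log2 ratios of 0.32 and -0.31, Slc39a7-003 (-0.21 and 0.22) and Supt6-002 (-0.42 and 0.44). Just below it lay Hmgn2-013 (-0.71 and 0.71), Rps18-013 (-0.97 and 0.97) and Atp6v1a-003 (-0.06 and 0.05).

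Genes of the splicing machinery, the textbook cases of regulated intron retention, were compared as lists. The genes for SR proteins, which bind exons and recruit the spliceosome, had 24 transcripts compared. Of these 4 were denser in both libraries and 14 less dense, none was called by the exact binomial test (1 denser and 2 less dense at an unadjusted p under 0.05 in both libraries), and the median log2 ratio was -0.56, beside -0.54 for all 5637. Together they held 51.9% and 66.5% of the expected counts. Srsf3-003 (3986 nt) had 35 and 6 counts against 48 and 15 (-1.49 ± 0.568), Srsf6-004 (2897 nt) 26 and 9 against 28 and 9 (0.23 ± 0.074), and Srsf5-005 (2720 nt) 27 and 6 against 39 and 3 (-0.61 ± 1.00). With counts this low the SD over the replicates was of the size of the ratios for Srsf5-005. It was smaller for Srsf6-004, whose standard errors from counting alone, 0.389 and 0.662 in replicates 1 and 2, were larger than its ratio.

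The hnRNP genes, whose proteins coat nascent transcripts and often repress splicing, had 33 transcripts compared, of which 7 (21.2%) were denser in both libraries, near the background of 21.8%, and 18 less dense (median -0.56, 65.1% and 45.2% of the expected counts). None was called denser and 3 (9.09%) were called less dense, against 3.46% of all retained-intron transcripts and a background of 1.56%. The 3 called less dense were Hnrnpl-002 with 30 and 2 counts against 100 and 38, Hnrnpl-011 with 6 and 0 against the same reference, and Ptbp2-010 with 0 and 1 against 54 and 14. PTBP2 is the neuronal form of the polypyrimidine tract binding protein. Hnrnpl-005 (48 and 20 counts, -1.13 ± 0.1), Hnrnpk-020 (68 and 13, -0.21 ± 0.545) and Hnrnpa3-005 (30 and 4, -0.11 ± 0.531) held the most counts of the list and were not called.

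The kinases of SR proteins had too few counts for a statement. Of the 8 transcripts compared, of 3 genes, none reached 20 counts and none was called or was denser in both libraries. Srpk1-004 had 11 and 7 counts against 26 and 13 (-1.18 ± 0.252), Dyrk1a-005 had 4 and 2 against 26 and 7 (-0.90 ± 0.688), and Srpk2-002 had 6 and 5 against 32 and 3 (0.89 ± 2.10). No Clk transcript passed the count filter.

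Further genes known for detained introns, RNAs that stay in the nucleus until the intron is removed, had 35 transcripts compared. None was denser in both libraries, 23 were less dense, and the median log2 ratio was -0.92 (46.7% and 47.6% of the expected counts). Of the 35, 3 (8.57%) were called less dense, beside 3.46% of all retained-intron transcripts. Rbm3-009, of a cold-inducible RNA-binding protein, had 49 and 11 counts against 61 and 10 (-0.24 ± 0.314), and Ddx5-006, of an RNA helicase, 42 and 12 against 200 and 65 (0.02 ± 0.107).

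Coding genes that host small nucleolar RNAs had 79 transcripts compared, 12 denser and 49 less dense in both libraries, with a median of -0.45. They held 72.5% and 78.7% of the expected counts, the highest of the 7 lists in both libraries. Ncl-002 was called denser (1.27%, background 0.537%), and Hspa8-002 and Hspa8-004 less dense (2.53%, below the 3.46% of all retained-intron transcripts), counts too small to set the list apart. Hsp90ab1-005 (797 nt), of a cytosolic chaperone, had 148 and 63 counts against 564 and 224 on 2520 nt (-0.21 ± 0.074). Cytosolic ribosomal protein genes had 121 transcripts compared, 11 denser and 83 less dense in both libraries (median -0.72, 55.4% and 61.1%). Rps15a-006 was called denser (0.826%) and 4 others less dense (3.31%), beside 0.248% and 3.46% of all retained-intron transcripts. Their largest counts were on Rps3-002 (96 and 26 against 108 and 29, -0.90 ± 0.01), Rps16-002 (64 and 26 against 73 and 15, 0.34 ± 0.68) and Rpl3-002 (63 and 21 against 60 and 20, -0.47 ± 0.00078). For Rpl3-002 the standard errors from counting alone were 0.259 and 0.445 in replicates 1 and 2, above its SD. Ribosomal protein genes have many processed pseudogenes, which can share their fragments.

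Genes of the neuronal cytoskeleton and the synapse had the lowest median of the 7 lists, -1.59 over 52 transcripts, with 6 denser and 43 less dense in both libraries. Together they held 54.4% and 50.3% of the expected counts, beside 58.9% and 57.7% for all 5637. At least 20 counts of their own were held by 26 of the 52, beside 995 of the 5637. Calls depend on depth, and how far this bears on the share called was not tested. Of the 52, 22 (42.3%) were called less dense, beside 3.46% of all retained-intron transcripts and a background of 1.56%. None was called denser (3 at an unadjusted p under 0.05 in both libraries). Of the 22, 8 belonged to 1 gene, Ank2, which encodes an adaptor between membrane proteins and spectrin. The 10 compared transcripts of Ank2 had 0 to 45 counts beside 130 on the reference, with log2 ratios from -5.89 to -0.59. Ank3 gave another 12 of the 52, with log2 ratios from -3.99 to -1.02, of which 2 were called less dense. How far Ank2 and Ank3 bear on the median of the list was not tested. Crmp1-010 (2268 nt), of a collapsin response mediator gene, had 25 and 3 counts against 417 and 150 on 3051 nt (-4.30 ± 0.985). Map2-004 (3537 nt), of a dendritic microtubule protein, had 36 and 5 against 362 and 111 (-3.0 ± 0.728). Snap25-003 (4880 nt), of a SNARE protein of transmitter release, had 35 and 10 against 131 and 41 (-3.14 ± 0.066). Stmn2-002 (3413 nt), of a growth cone protein, kept more than these, with 237 and 89 counts against 438 and 162 on 2073 nt (-1.59 ± 0.017).

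**Figure D4:**
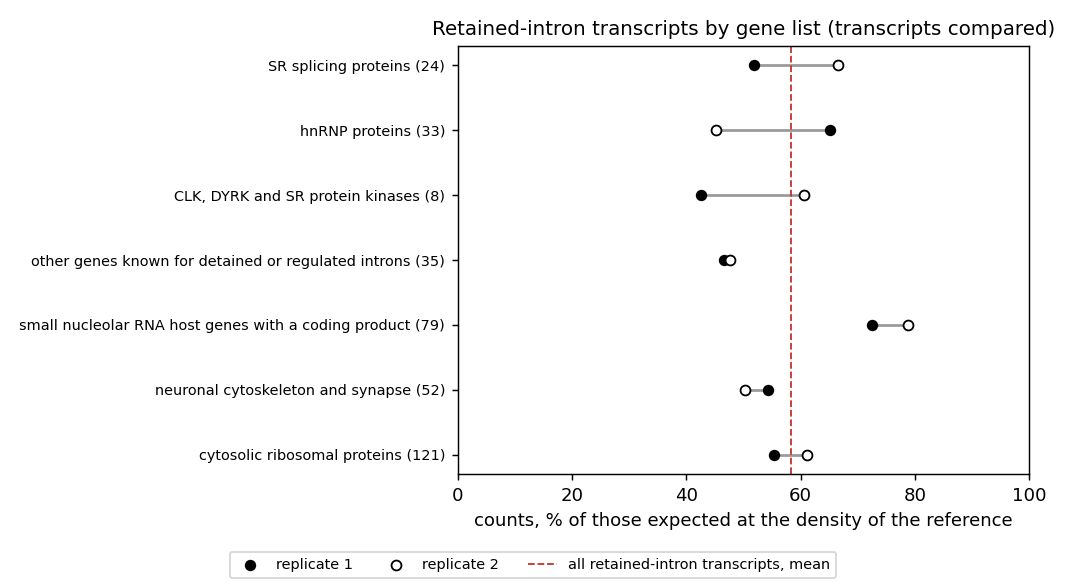
Counts on retained-intron transcripts as a percentage of those expected at the density of their references (horizontal axis) for 7 gene lists, with the number of transcripts compared in parentheses. Filled points are replicate 1, open points replicate 2 and the dashed line is the mean over all 5637 transcripts; only the small nucleolar RNA hosts lie above the line in both libraries.

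The libraries themselves differed in a few retained-intron transcripts. The exact binomial test of replicate 2 against replicate 1, with TMM scaling, called 10 of the 1003 with a mean of at least 10 counts at an adjusted p under 0.05 (49 at an unadjusted p under 0.05), 7 higher and 3 lower in replicate 2. The background over 11093 transcripts of all kinds was 1.89%, with 202 higher and 8 lower. Scaling by library totals, which moved the median log2 ratio of all transcripts from -0.05 to -0.25, gave 5 higher and 6 lower. The test compares 2 libraries, not conditions, and counts no biological spread. With a preset coefficient of variation of 0.2 in edgeR's exact test, Ttyh1-012 and Ncapd2-004 were called.

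Ttyh1 encodes a membrane protein of the tweety family of anion channels, expressed in neural progenitors and glia. Ttyh1-012 (773 nt) held 9 counts in the first library and 36 in the second. The log2 ratio between the scaled libraries was 3.66 (standard error 0.525 from counting alone, adjusted p 2.9e-13, exact binomial test). The coding transcripts Ttyh1-001, Ttyh1-002 and Ttyh1-005 had 55 and 5, 50 and 10, and 53 and 7 counts. Their log2 ratios were -1.61, -0.55 and -1.11, and none passed the test (adjusted p 0.194, 0.981 and 0.554, exact binomial test). Its density was thus below the reference in replicate 1 (log2 ratio -0.05) and far above it in replicate 2 (5.22), and it belonged to none of the groups that needed both libraries. The other retained-intron transcripts of Ttyh1 had 1 to 9 counts in replicate 2.

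For 3 of the 7 higher transcripts, of Ncapd2, Mcm7 and Rps2, short RNA genes inside the host gene were also higher in replicate 2. Gas5, the gene of another of the 7, holds Snord47 in RefSeq, whose row had 0 and 1 counts. No other short RNA of Gas5 was looked at. Ncapd2-004 (log2 ratio 3.74) has Scarna10, at 3.58. Mcm7-010 (986 nt) had 10 and 16 counts, at 2.37, while its reference Mcm7-001 (2962 nt) had 12 and 5, and the rows of Mir25, Mir93 and Mir106b, the hairpins of the sequences shown above, held 2 and 4, 4 and 13, and 3 and 5 counts. The 3 hairpins together held 9 and 22 counts, and were too low for the library test. Rps2-007 (965 nt), of a small ribosomal subunit protein gene, had 13 and 17 counts, at 2.10, beside 14 and 3 on Rps2-201 and 7 and 13 on Snora64, an RNA that RefSeq places inside Rps2. Snora78, also placed inside Rps2, held 0 and 2 counts. Over the same scaling, with 0.5 added to each count, the coding references stood at 2.01 for Ncapd2-001, 0.54 for Mcm7-001 and -0.33 for Rps2-201, with standard errors from counting of 0.917, 0.738 and 0.859, and were too low for the library test. Short non-coding classes as a whole were higher in replicate 2, with 16435 counts (7.3%) against 11395 (1.56%) in replicate 1, or 4.75-fold after scaling. Whether the fragments of the retained-intron rows are those of the short RNAs was not tested.

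Among the rest, Gas5-003, of a non-coding host gene of small nucleolar RNAs, had 17 and 17 counts (log2 ratio 1.72), Tmprss11a-002 was at 2.43, and Tubb5-004 at 0.46, close to 0.41 for its coding reference. Among the 3 lower in replicate 2 were Actg1-003 (167 and 25 counts, -0.995) and Spock1-004 (60 and 4, -2.03). Spock1 encodes a brain proteoglycan, and its reference Spock1-201 (74 and 15) was not called.

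The 245 retained-intron transcripts of genes without a coding transcript held 362 and 158 counts in all, 153 of them had none, and 8 reached 20. Gas5-003 was among the highest, while the lincRNA form with the most counts, Gas5-008, had 1 and 1. Snhg5, another small nucleolar RNA host, had 13 and 8 counts on Snhg5-007 against 3 and 0 on its lincRNA form Snhg5-001. Cct6a-002 and Cct6a-004, of a chaperonin gene whose main row is classed as a processed transcript, had 21 and 13 and 20 and 3 counts beside 95 and 38 on Cct6a-201. Gm21982-001 had 31 and 5 counts and Gm20427-001 had 23 and 8.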

How the data were processed

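The authors deposited whole-number counts of RiboLace footprints per transcript for 2 libraries, unnormalized, with the length of each transcript and its coding sequence. Trimmomatic 0.36, Bowtie2 2.2.6, SAMtools and the build GRCm38.p4 are named per the submitters' processing notes; the counting rule and annotation release are not given in the sources used here. Isoforms matched by length had closer counts than independent counts would be, which does not settle how shared fragments were counted, so the premise that an excess of counts cannot lie in shared sequence was not relied on. Densities, shares and exact binomial tests with Benjamini-Hochberg adjustment were computed in Python 3.11.15 with scipy 1.17.1, over all isoforms of genes with a reference; TMM factors (1.07 and 0.931, from gene counts) came from edgeR 4.0.16. The adjusted p is the larger of the libraries' unless stated. A p-value measures spread within the counts, not between animals. The code was tested on simulated data: of 200 transcripts changed 4-fold, 42 were called in both libraries. RefSeq gave neighbours and microRNA sequences, and 2312 of 2399 gene symbols matched. Named transcripts are those with the highest ratio, excess or count, those next to a ratio of 1 and the most counted of each list; the members and lists were chosen with earlier results of these data known. Some transcripts that these rules name are not reported here. No column belonged to another sample.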

Additional observations from a re-analysis of the deposited data

How the results depend on the processing

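No paired analysis was possible because all samples belong to 1 group. The median log2 density ratio (-0.54) was -0.78 against the coding isoform of highest count per length, -1.36 by coding length, -0.25 without a count filter, -0.63 for pairs of at least 50 counts, -0.90 and -0.29 with 0.1 and 1 added to each count, and -0.29 with 1 transcript per gene; it stayed below 0 in each. The number denser in both libraries (780) became 399, 82, 1263 and 340 in the first 4 of these settings, 508 with 1 per gene, 258 with at least 20 counts of their own, and 1433 to 1532 from 1 library. The number called denser (14) became 9 against the densest isoform, 1 by coding length, 9 without a filter and 21 to 129 from 1 library. The number called less dense (195) became 766 by coding length, 76 with 1 per gene and 197 to 965 from 1 library. Raw excesses (40) became 100 without a filter, 17 at 50 counts, 7 with an excess of 10, 3 past 2 times the square root of the pair's counts, and 119 to 260 from 1 library. The mean share of counts (9.88%) was 11.1% among coding genes. Transcripts differing between libraries (10) became 2 at a mean of 50 counts and 2 with a preset coefficient of variation of 0.2. By coding length Eif1ax-002 (-1.10), Cycs-002 (-0.99), Lin7c-002 (-0.69) and Ncl-002 (-0.64) changed sign. Beyond the settings' own construction, the cause was not tested. Effective length, a minimum of 300 nt and the longest coding sequence as reference moved none of the counts by over 1.5 times. The settings with 1 per gene, 20 own counts and the square root were chosen after seeing the data. Depth limits most values: replicate 2 held fewer counts, and 9737 transcripts were too low to compare.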
